A study of Mus musculus with 2 samples.

Results

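Pou5f1, Zfp42, Klf5, Dppa4 and Sall4 are genes of the pluripotent state, and their levels were compared between embryoid bodies labelled Elongin A+/+ and Elongin A-/- after treatment with retinoic acid. They were chosen by name, as the probes whose gene symbol in the platform annotation is exactly 1 of these 5. Each gene has 1 probe, so there are 5 probes of 32440 on the array and 5 genes of 13697 with a symbol of their own. Embryoid bodies are aggregates in which mouse embryonic stem (ES) cells differentiate. One group came from Elongin A+/+ and the other from Elongin A-/- ES cells. Both received 2 µM retinoic acid, which pushes ES cells out of pluripotency and towards neural fates, and both were profiled at day 4. The labels do not say how the Elongin A-/- line was made or whether it is 1 clone. Elongin A, the large subunit of the Elongin complex, helps RNA polymerase II to elongate transcripts. The array of each genotype is called here by its label, the +/+ array and the -/- array.

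The probe of Eloa, the Elongin A gene itself, had 3.87 on the +/+ array and 3.57 on the -/- array, a log2 difference of -0.12 that was 0.05 with the values as deposited. Whether this probe lies in a deleted part of the gene is unknown here, so it checks nothing, and every direction rests on the labels. There was 1 array per genotype, and no array of untreated bodies or of ES cells was analysed here. No difference below therefore has a replicate check or a test, and what is given is the level after treatment, not the loss from the starting level. The genotypes cannot be told apart from the cell line, the culture or the array. Intensities are in arbitrary units after quantile normalisation, and the floor, the array median, was 1.03. Log2 differences are -/- minus +/+, so a positive value is a higher level on the -/- array. A value under the floor was set to the floor, and the difference is then a bound, written as "at least". Genes called apart differed by at least 2-fold. Levels of different probes are not compared with each other, since probes differ in sensitivity. Because these are whole aggregates, fewer cells of a type and less RNA per cell cannot be told apart.

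The genes have different places in the pluripotency network. Pou5f1 encodes OCT4, the POU-domain factor without which the inner cell mass does not form pluripotent cells, and retinoic acid is well known to shut it down through nuclear receptors acting at its promoter and enhancers. Zfp42 encodes REX1, a zinc finger protein related to YY1 that is used as a marker of naive ES cells and is a target of OCT4. Klf5 is a Krüppel-like zinc finger factor that, together with Klf2 and Klf4, sustains self-renewal, and it also acts in trophectoderm and in epithelia. Sall4 is a zinc finger factor that binds OCT4 and is also used in early organ development, and Dppa4 is a chromatin protein that works as a partner of DPPA2 in priming developmental promoters.

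The promoters of Pou5f1 and Zfp42 are shown because the table used here matched these 2 genes, and the first is a known target of nuclear receptors and the second of OCT4. RefSeq promoter windows of GRCm38.p6 run from 250 bases before to 50 bases after a gene's start. Capitals mark exact matches, on either strand, to 6 motifs: the octamer of POU factors (ATGCAAAT), the GC box of Sp and KLF factors (GGGCGG), the core site of nuclear receptors (AGGTCA), the SOX core (ACAAAG), the E-box (CACGTG) and the TATA box (TATAAA). No match overlapped another. The Zfp42 window lies at chr8:43306960-43307259 on the minus strand and the Pou5f1 window at chr17:35505782-35506081 on the plus strand, and both are written 5′ to 3′ in the direction of the gene.
Zfp42: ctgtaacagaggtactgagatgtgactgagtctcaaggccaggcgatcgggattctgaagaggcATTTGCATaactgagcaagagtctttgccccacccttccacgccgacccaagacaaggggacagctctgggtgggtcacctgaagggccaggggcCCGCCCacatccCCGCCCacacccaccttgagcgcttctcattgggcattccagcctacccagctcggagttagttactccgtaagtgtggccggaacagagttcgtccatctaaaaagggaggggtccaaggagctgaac
Pou5f1: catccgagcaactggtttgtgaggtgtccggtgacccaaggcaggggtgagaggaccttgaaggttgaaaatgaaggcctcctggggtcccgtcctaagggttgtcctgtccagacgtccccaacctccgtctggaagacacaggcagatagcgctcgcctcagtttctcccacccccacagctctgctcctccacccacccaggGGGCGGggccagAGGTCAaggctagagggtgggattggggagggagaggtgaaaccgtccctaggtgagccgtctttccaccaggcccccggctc

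The Zfp42 window held the octamer on its reverse strand, at bases 65 to 72 of the window, and GC boxes on the reverse strand at bases 160 to 165 and 172 to 177. The Pou5f1 window held a GC box at bases 206 to 211 and, a few bases further on, a nuclear receptor core site at bases 218 to 223. The octamer is in 1.74% of 32851 RefSeq windows of this length, the receptor core site in 16.3% and the GC box in 35.7%. The SOX core, the E-box and the TATA box, which are in 18.7%, 7.15% and 13.6% of windows, were not in either sequence. A further RefSeq start of Pou5f1, at chr17:35508557-35508856, had none of the 6 motifs in its window. G and C made up 57.7% of the Zfp42 window, 62.7% of the first Pou5f1 window and 45.7% of the other, against a median of 52.7% over all windows. A match describes the letters of the window, and nothing here measured binding.

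Klf5, Zfp42 and Pou5f1 were lower, and Dppa4 and Sall4 were higher, on the -/- array. By the size of 2-fold, 4 of the 5 genes were apart, 2 lower and 2 higher. Over all 9568 measured genes, those above the floor on at least 1 array, 12.7% were apart, 6.76% higher and 5.97% lower, and among the 7529 genes above the floor on both arrays 9.9% were apart. With the values as deposited, higher genes made up 64.1% of all genes apart in place of 53.1%. The median of the 5 differences was -0.72, and the median of all measured genes was -0.02. The genes had been picked out with such differences already known, so the count describes them and does not set them apart from other genes.

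**Figure D1:**
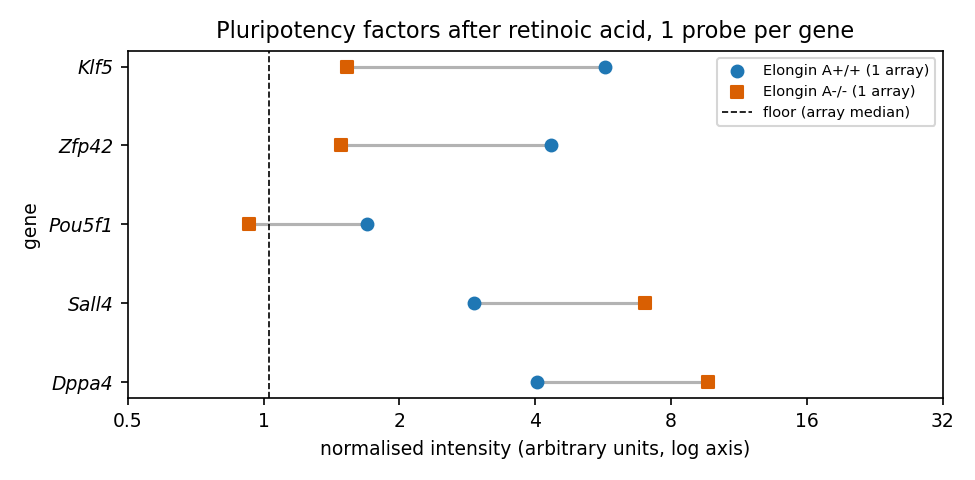
Normalised intensity (arbitrary units, log axis) of the 5 genes, 1 probe each, on the +/+ array (circles) and the -/- array (squares), with the floor of 1.03 as a dashed line. Klf5, Zfp42 and Pou5f1 have the square to the left of the circle, Sall4 and Dppa4 have it to the right, and Pou5f1 on the -/- array is the only point left of the floor.

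Pou5f1, the core factor, was close to the floor on both arrays. Its probe (615439, chromosome 17) gave 1.70 on the +/+ array and 0.927 on the -/- array. The first is 1.65 times the floor and the second is under it, so the gene was at least 1.65-fold lower, a log2 bound of -0.72, and -0.87 when the floor was left out. Values as deposited were 1.63 and 0.921. Of the measured genes 1025 had a lower difference than Pou5f1, or 10.7%. Pou5f1 was thus not clearly detected and its direction is uncertain. The 5 genes are named here singly rather than as factors that persisted.

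Zfp42, the REX1 gene, was lower and stayed above the floor on both arrays. Probe 916512, on chromosome 8, read 4.34 and then 1.48 in the same order of arrays. The log2 difference was -1.55, or 2.92-fold lower. The dimmer value was 1.45 times the floor, so by the standard applied to Pou5f1 the gene was not clearly detected on the -/- array, and the size of the difference is approximate. Chromosome 8 as a whole went the other way, with a median of 0.43 over 522 measured genes, and Zfp42 was at -1.98 once that median was taken off, a setting chosen after the data were seen.

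Klf5 was lower as well. Its probe (447032, chromosome 14) gave 5.71 on the +/+ array and 1.53 on the -/- array, which is 3.73-fold lower, or -1.90 on the log2 scale. Like Zfp42, Klf5 was at several times the floor on the first (5.56) and just above it on the second (1.49), where it was not clearly detected, so this size is approximate too. With the floor at the 75th percentile its difference was -0.13, and with each chromosome's median removed it was -1.84 beside -1.98 for Zfp42.

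Dppa4 and Sall4 were higher by nearly the same factor. Dppa4 (probe 649681, chromosome 16) had 4.03 and 9.65, and Sall4 (probe 749421, chromosome 2) had 2.93 and 7.0, in the order Elongin A+/+ and Elongin A-/-. Both were 2.39-fold higher, a log2 difference of 1.26, and all these values lay above the floor. Of the measured genes 386 had a higher difference than Dppa4 and 387 than Sall4, about 4.03% and 4.04%. With the values as deposited the factor was 2.65 for both genes, from 3.79 to 10.04 for Dppa4 and from 2.78 to 7.37 for Sall4.

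How large these differences are depends on the level at which they were read. All 5 probes were dim, with a mean over the arrays, taken on the log2 scale with the floor, of 1.32 for Pou5f1, 2.54 for Zfp42, 2.96 for Klf5, 4.53 for Sall4 and 6.24 for Dppa4. Among measured genes with a mean under 4, where Pou5f1, Zfp42 and Klf5 lie, 20.8% were apart. From 4 to under 16, where Sall4 and Dppa4 lie, the share was 10.1%, and at 16 and over it was 3.63%. Where a gene had several probes above the floor on both arrays, their log2 differences disagreed with an SD of 0.43 (224 genes), and of 0.50 among the 68 genes with a mean under 8. Klf5, Zfp42, Dppa4 and Sall4 differed by more than either SD. Pou5f1 was not above the floor on both arrays, so neither SD covers it. With 1 probe each none of the 5 has a second reading, and the SD holds no error between cultures.

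Genes of olfactory, vomeronasal and taste receptors, a set chosen after the data were seen, show how often probes for genes with no known part in these cells lie above the floor. Of 838 such genes 23.0% lay above the floor on the +/+ array and 22.2% on the -/- array. The counts were 193 and 186, with 59 and 65 over 2 times the floor and 20 and 24 over 4 times the floor. Among the 278 that were measured, 15.5% were apart. The range from 1 to 2 times the floor, which holds Pou5f1 on the +/+ array and Zfp42 and Klf5 on the -/- array, was thus reached by many of these receptor genes.

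**Figure D2:**
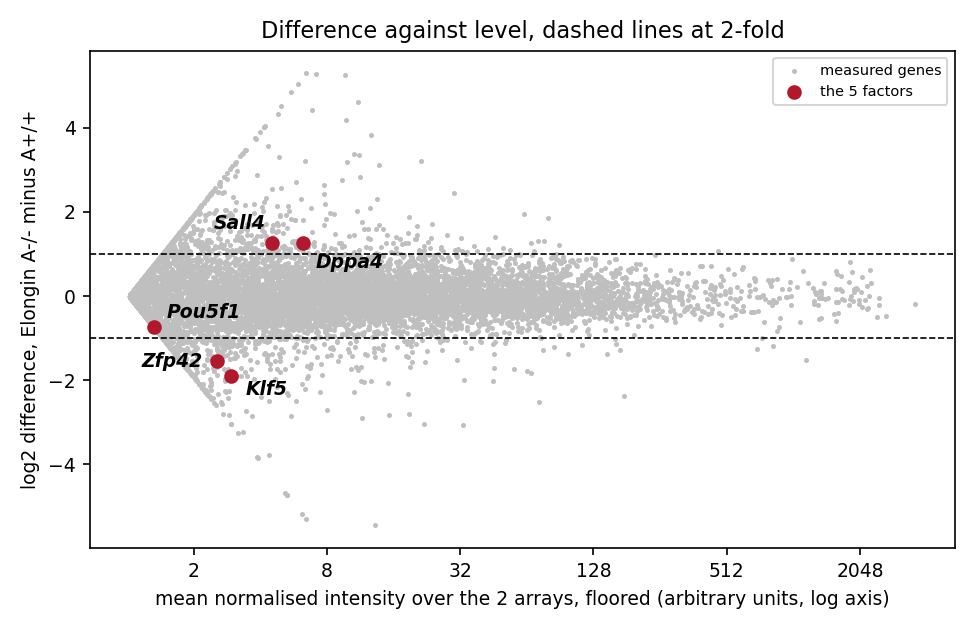
Log2 difference (Elongin A-/- minus Elongin A+/+) against mean normalised intensity over both arrays (log axis) for all 9568 measured genes (grey) and the 5 factors (red), with dashed lines at 2-fold. The grey cloud is wide at low intensity, where all 5 factors lie, but narrows towards the floor because both axes are floored. Klf5, Zfp42, Sall4 and Dppa4 lie outside the dashed lines. Pou5f1 lies inside them, at the largest difference that the floor allows at its mean level.

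Most other transcription factors of the pluripotency network lay within 2-fold, as did most measured genes. Over all measured genes 12.7% were apart, 6.76% higher and 5.97% lower, and the list counts below stand beside these shares. Of 25 such genes 21 were named on the array and 19 measured, with 2 higher, 2 lower and a median of -0.07, which was 0.00 with the values as deposited. Leaving out Pou5f1, Zfp42, Klf5 and Sall4 left 15 genes, of which 1 was higher and none lower, with a median of -0.00. That 1 gene was Stat3, the effector of LIF signalling, which was under the floor on the +/+ array (0.778) and had 2.11 on the other, at least 2.05-fold higher.

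Sox2, the partner of OCT4 and also a neural progenitor factor, had 72.2 on the +/+ array and 39.5 on the -/- array, a difference of -0.87. Tbx3, a naive factor with roles in limb and endoderm, had 13.3 and 7.65, and Gbx2, a naive factor that also patterns the hindbrain, had 10.5 and 6.11. Zfp281, a zinc finger factor of the exit from the naive state, had 65.7 and 42.9. These 4 genes were lower by less than 2-fold, between -0.87 and -0.61. Klf4 had 2.43 and 2.09, and Klf2 1.94 and 1.18, with its other probe at 1.44 and 0.831.

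Mycn, a transcription factor gene of the MYC family, had 32.7 and 33.8, and Myc 17.0 and 22.7. Rif1, a chromatin and replication timing protein, had 25.2 and 23.9, Mybl2, a cell cycle factor, 5.03 and 7.25, and Tcf15 7.08 and 7.83. Nr0b1, the DAX1 gene, was just over the floor at 1.11 and 1.32. Tfcp2l1 and Nr5a2 were below the floor on both arrays, Foxd3 and Zfx exceeded it on 1 array only, by less than 0.1 on the log2 scale, and Nanog, Esrrb and Prdm14 were not named among the probes here.

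Among genes associated with ES cells and early epiblast, 12 were above the floor on both arrays and Dppa4 was the 1 apart. Of 35 listed, 24 were named and 20 measured, with Dppa4 higher, none lower and a median of -0.09, which was 0.01 with the values as deposited. Without Dppa4 the 19 others had none apart, 9 above and 10 below a difference of 0, and a median of -0.19. Of these 19, 8 were bounds, and with no floor the whole list had 4 higher and 3 lower. Lin28a, the RNA-binding protein that blocks let-7 maturation, had 15.3 and 19.7, and Dnmt3b, a de novo DNA methyltransferase of the epiblast, 19.9 and 17.3. Utf1, a chromatin factor of ES cells, had 8.49 and 7.27, and Dppa5a, an RNA-binding protein, 15.5 and 11.8. These 4 genes were well above the floor on both arrays and differed by less than 2-fold.

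Epcam and Cdh1, adhesion genes of ES cells and epithelia, differed in opposite directions, Epcam with 70.6 and 42.2 and Cdh1 with 14.8 and 23.0. Trim28, a corepressor, had 180.5 and 222, Jarid2, a subunit of the Polycomb complex PRC2, 40.0 and 35.0, and Cd9, a tetraspanin, 7.02 and 4.46. Pou3f1, an epiblast and neural POU factor, had 1.59 and 1.89, and Phc1, a Polycomb protein, 1.48 on both arrays. The other 8 measured genes lay under the floor on 1 array. Nodal (1.42), Otx2 (1.45), Dnmt3l (1.49) and Dppa2 (2.02) were above it only on the +/+ array, and Lefty2 (1.48), Dppa3 (1.61), Fgf5 (1.27) and Alpl (1.99) only on the -/- array. Tdgf1, Gdf3, Tcl1 and Eras, genes of undifferentiated ES cells, were below the floor on both.

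**Figure D3:**
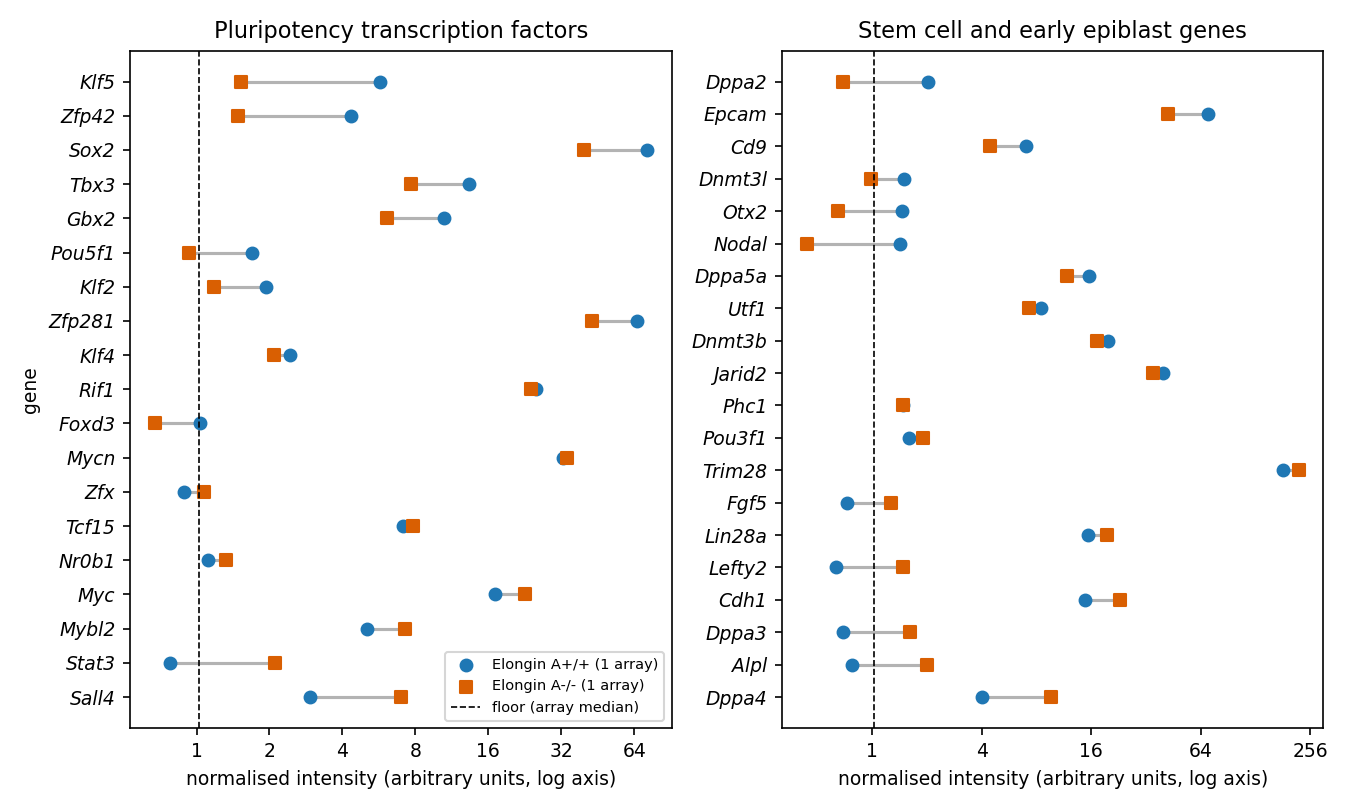
Normalised intensity (arbitrary units, log axis) of the 19 measured pluripotency transcription factors (left) and the 20 measured ES cell and early epiblast genes (right), on the +/+ array (circles) and the -/- array (squares), sorted by the difference, with the floor dashed. Klf5 and Zfp42 are at the lower end on the left and Sall4 at the upper end, Dppa4 is at the upper end on the right, and pairs with a point left of the dashed line are bounds.

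Dppa4 and its partner Dppa2 differed in opposite directions although they are next to each other on chromosome 16 among measured genes. Dppa2 had 2.02 on the +/+ array and 0.690 on the -/- array, at least 1.97-fold lower, while Dppa4 was 2.39-fold higher. The +/+ value of Dppa2 lay between 1 and 2 times the floor, a range that many receptor genes reached. Like Pou5f1, Dppa2 was thus not clearly detected on either array, and its direction is uncertain. On the other side of Dppa4, Nectin3, an adhesion gene, had 22.1 and 17.6. Dppa3, the STELLA gene of germ cells and ES cells, was at 0.685 and 1.61, and Dppa1 was below the floor on both arrays. Of the 5 Dppa genes 4 were measured, 1 was higher, Dppa4 itself, and none lower, beside 12.7% apart among all measured genes. The median was 0.13, or -0.01 with the floor at the 25th percentile. It includes Dppa4, which was chosen with its difference known. Of the other measured Dppa genes, Dppa2 (-0.98, a bound) and Dppa5a (-0.40) were on the lower side and Dppa3 (0.65, a bound) on the higher side.

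Of the SALL genes, which encode related zinc finger factors, Sall4 and Sall3 were higher. Sall3 had 1.90 and 5.46, 2.88-fold higher, but its other probe was below the floor on both arrays, at 0.696 and 0.374. The +/+ value of the first probe lay between 1 and 2 times the floor, so it was not clearly detected there and the size is approximate. Sall1, a kidney and neural factor, had 0.650 and 1.80, at least 1.76-fold higher, and Sall2 had 1.79 and 0.728, at least 1.74-fold lower. All 4 genes were measured and 2 were apart, beside 12.7% among all measured genes. The median was 1.03, which was 0.56 with probes of a gene averaged. Both the count and the median include Sall4, which was chosen with its difference known, and Sall3 was the only other SALL gene apart.

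Klf5 was the only Krüppel-like gene apart among 11 measured of 14 named, beside 12.7% apart among all measured genes. The median of the 11 was -0.22, and -0.08 with the values as deposited. Klf6, a factor of injury response and growth control, had 4.64 and 3.05, and Klf11, a TGF-beta-induced repressor, 3.71 and 2.63. Klf7, a neuronal factor, had 10.4 and 17.8, and Klf10, another TGF-beta-induced factor, 26.2 and 41.0, so these were on the higher side. Klf13 (62.6 and 63.0) and Klf16 (5.99 and 5.56) were nearly level. Klf1 had 1.52 and 0.923, Klf8 was at the floor, and Klf12, Klf15 and Klf17 were below it on both arrays.

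Of the POU genes, 8 were named and 6 measured, with none apart and a median of 0.19. Pou5f1 was lower only as a bound and was not clearly detected. The neural genes Pou3f2 (2.85 and 3.13), Pou3f3 (1.42 and 1.97) and Pou3f4 (2.13 and 3.61) were on the higher side. Pou3f4 was so by 0.76, but Pou3f2 by 0.14 and Pou3f3 by 0.48, less than the SD between dim probes of 0.50. Pou6f1 had 1.51 and 1.37, and Pou2f2 and Pou2f3 were below the floor. Yy1, the ubiquitous relative of Zfp42, had 78.1 and 76.6, a difference of -0.03 beside -1.55 for Zfp42. The 2 were read at unlike levels. Yy1 lies at 16 and over, where 3.63% of measured genes were apart, and Zfp42 under 4, where 20.8% were.

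**Figure D4:**
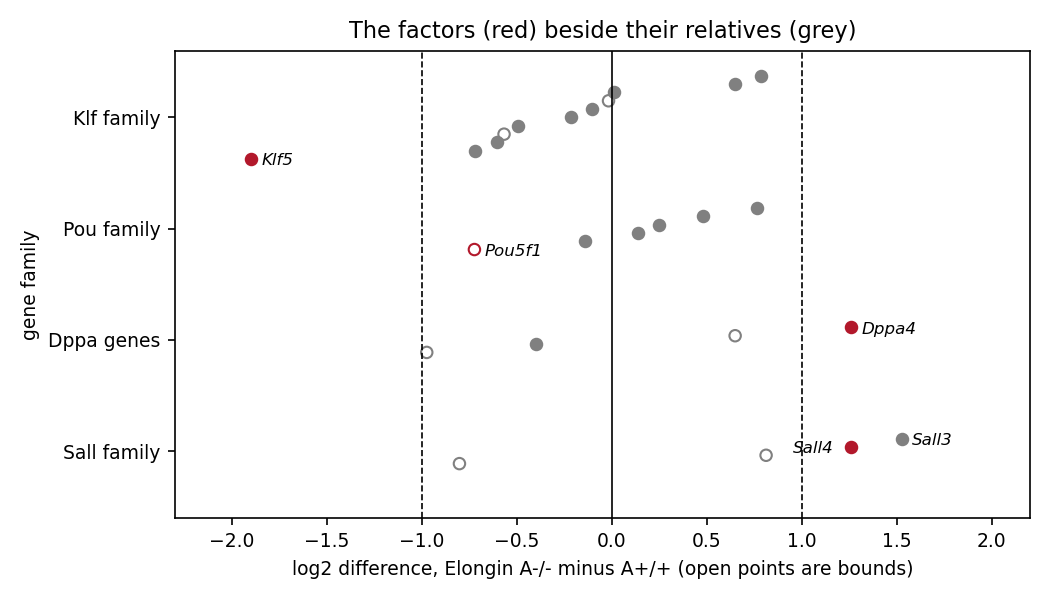
Log2 difference (Elongin A-/- minus Elongin A+/+) of each measured gene in the SALL, DPPA, POU and Krüppel-like families, with the factors in red, their relatives in grey, bounds as open points and 2-fold as dashed lines. Klf5 lies left of all other Krüppel-like genes, Pou5f1 left of all other POU genes, and Sall4 and Dppa4 lie right of the line at 2-fold together with Sall3.

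Genes that silence Pou5f1 or carry the retinoic acid signal lay on both sides of 0. Of 17 listed, 11 were named and 8 measured, with none higher, 1 lower and a median of 0.02 over members from -1.50 to 0.94. Nr2f1 and Nr2f2, the COUP-TF receptors that bind the Pou5f1 promoter, had 48.7 and 62.0, and 75.8 and 78.3. Nr2c1, the TR2 receptor, had 5.50 and 5.47, and Nr6a1, the germ cell nuclear factor that represses Pou5f1, was below the floor on both arrays at 0.564 and 0.680. Rarb, a receptor induced by retinoic acid, had 3.45 and 2.73, Rxrb 15.5 and 17.9, and Rarg 0.481 and 1.98, at least 1.92-fold higher. Cyp26a1, a direct target that degrades retinoic acid, had 159 and 89.8, 1.78-fold lower. Cdx2, the caudal factor that opposes Pou5f1 in trophectoderm, was the lower gene, with 2.91 and 0.783, at least 2.84-fold.

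Of 21 genes of DNA methylation and repressive chromatin, 18 were named and all 18 measured, with none apart and a median of -0.21. Differences were below 0 in 14 of the 18, beside 4937 of all 9568 measured genes. With the values as deposited the median of the list was -0.12. Dnmt1, the maintenance methyltransferase, had 3.47 and 2.03, the widest at -0.77, Uhrf1, its recruiter, 16.3 and 13.2, and Hells, a remodeller needed for methylation, 35.5 and 25.3. Ehmt2, the G9a methyltransferase that acts on the Pou5f1 promoter, had 94.6 and 79.5. At 1 array per genotype these differences, all under 2-fold, cannot be told from array to array error.

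Several cell types other than pluripotent cells express these factors, and some of their markers were apart too. The marker counts here and in the next paragraph stand beside 12.7% apart among all measured genes, or 20.8% at a mean under 4. Of 16 germ cell markers 14 were named and 7 measured, with 1 higher and 3 lower. Their intensities summed to 423 on the +/+ array and 98.7 on the -/- array, mostly through Stra8, a retinoic acid target (403 and 77.5). Dazl, an RNA-binding protein of germ cells, had 3.94 and 1.48, Dnd1 had 3.41 and 0.939, and Tdrd1 was higher (1.06 and 6.47), while Ddx4, the defining germ cell helicase, and Tfap2c were below the floor on both arrays. Of 13 trophoblast markers 10 were named and 5 measured, with 1 higher (Krt7) and 2 lower (Cdx2 and Gata3), and sums of 32.9 and 25.8. Eomes, Hand1, Ascl2, Tpbpa and Tead4 were below the floor on both arrays.

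Of 11 epithelial markers all were named and 10 measured, with 2 higher (Krt19 and Grhl2), none lower and sums of 228 and 254. Grhl2 (0.393 and 2.38) has 2 probes, and with probes averaged 1 epithelial marker was higher. Of 14 markers of primitive and visceral endoderm 12 were named and 9 measured, with 2 higher (Sox7 and Ttr), 1 lower (Afp) and sums of 22.6 and 42.3, and Gata4, Apoa1 and Amn were below the floor. Of 13 neural markers 10 were named and 9 measured, with none higher, 4 lower (Fabp7, Neurog2, Stmn2 and Sox1) and sums of 398 and 269. Differences were above 0 for 2 of the 9, Pax6 and Dcx, and Tubb3 (179 and 168) gave the largest part of the neural sums. Of 11 mesoderm markers 9 were named and 6 measured, all 6 higher, with sums of 38.4 and 152, and Tbx6, Mesp1 and Msgn1 were below the floor. Among the markers apart, Dnd1, Cdx2, Grhl2, Ttr, Afp, Sox1 and Foxc1 were under the floor on 1 array, so their differences are bounds. The counts also depend on the setting. With the values as deposited 4 endoderm markers were higher. With the floor at the 75th percentile 3 mesoderm markers were higher, and 2 neural markers and 1 germ cell marker were lower. All of these marker sums add probes of different sensitivity, values under the floor included, so the brightest probes weigh most in them. The part of these cell types in the differences of the 5 factors was not tested.

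Most measured neighbours of the 5 genes along their chromosomes lay within 2-fold, as did most measured genes, of which 12.7% were apart. For each gene the 5 measured genes on either side in the GRCm38.p6 gene order were taken. Around Klf5 none of the 10 was apart, and the differences ran from -0.66 to 0.36. Around Zfp42 1 was higher and none lower, with a median of 0.46, close to the 0.43 of all 522 measured genes on chromosome 8. The nearest measured neighbours of Zfp42, both under the floor on the +/+ array, were Triml1 (0.388 and 1.88) and Mtnr1a (0.429 and 1.03). Around Sall4 none was apart and the median was -0.12, with Atp9a at 7.38 and 5.51 and Zfp64 at 4.87 and 4.74. Around Dppa4 1 was lower and none higher, and around Pou5f1 1 was higher and none lower. The higher one was H2-Q10, the nearest on one side, with 1.08 and 2.25, and the nearest on the other, Tcf19, had 18.8 and 21.1.

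**Figure D5:**
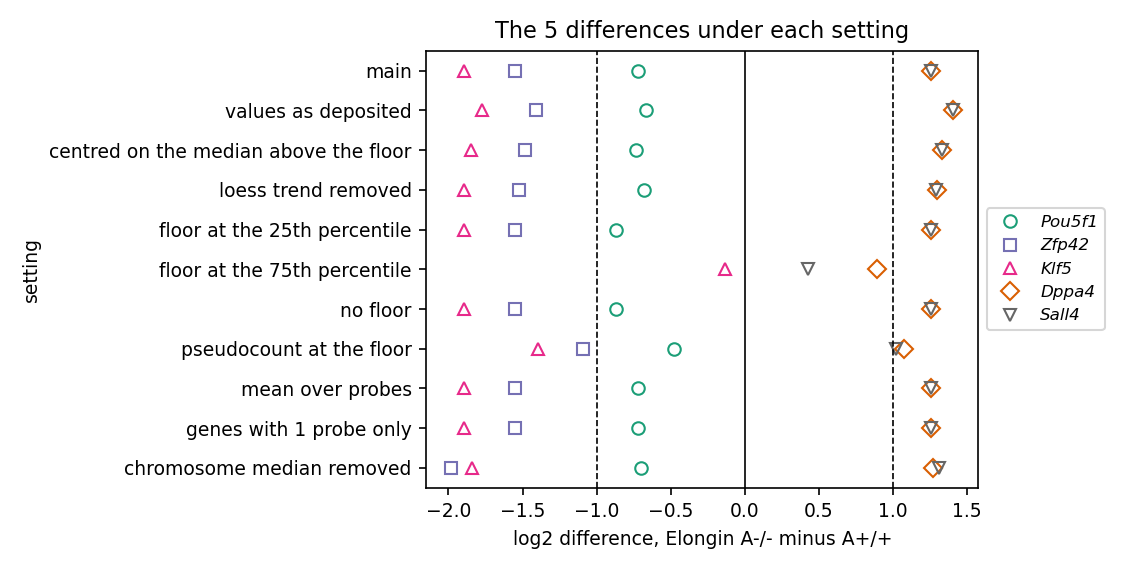
Log2 difference (Elongin A-/- minus Elongin A+/+) of each factor under the main setting and 10 other settings of scaling, floor, probes and chromosome, with dashed lines at 2-fold. Every point keeps its side of 0, and the points move most with the floor at the 75th percentile, where Klf5 is at -0.13, Sall4 at 0.43 and Dppa4 at 0.89, and Pou5f1 and Zfp42 have no value.

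The signs of the 5 differences were the same under all of these settings that gave a value. Klf5 ranged from -1.90 to -0.13, Zfp42 from -1.98 to -1.10 and Pou5f1 from -0.87 to -0.48. Dppa4 ranged from 0.89 to 1.40 and Sall4 from 0.43 to 1.41. With the floor at the 75th percentile 3 of the genes were measured and none was 2-fold apart.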

How the data were processed

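Per the labels' protocols, RNA was transcribed into digoxigenin-labelled cRNA for chemiluminescent arrays. The deposited table holds linear intensities, never negative, with medians of 1.02 (Elongin A+/+) and 1.03 (Elongin A-/-). How the authors normalised, corrected for background or filtered them is not stated in the labels or the table. The sample titles gave each array its genotype.

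Of the probes, 14253 have 1 gene symbol in the platform annotation, 243 several and 17944 none, and only the first were named. Of several probes for a gene, the brightest by mean log2 value stood for it. Percentiles of the log2 values differed by up to 0.16 between arrays (limit 0.1), so the arrays were quantile normalised on the log2 scale, which would hide a shift of most genes in 1 direction. The members and lists were chosen with earlier results of these data known.

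Named were the 5 factors, list members at least 2-fold apart, members of the pluripotency, ES cell and family lists above the floor on both arrays, and 10 set genes, among them Nanog, Nr6a1 and Yy1. A rule for the genes most like each factor was not used, since it compares levels of different probes. Other genes, such as those under the floor or beside a factor on its chromosome, were named after their values were seen. Python 3.11.15, pandas 2.3.3, NumPy 2.4.6 and statsmodels 0.14.6 were used. The steps were tested on simulated data, with shifts placed only in probes brighter than all 5 factors. That check does not cover the dim range in which the factors lie. The alternatives were the values as deposited, centring, a loess trend (span 0.3), 3 other floors, a pseudocount, other probe rules and folds of 1.5 and 3. Removing each chromosome's median was added after the data were seen.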

Additional observations from a re-analysis of the deposited data

How the results depend on the processing

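No test was possible with 1 array per genotype, and dim signal limits all 5 factors. A value was taken as moved when it changed by more than the SD between probes, and a count when it changed by over 1.5 times. No paired analysis was possible because each group has 1 array and no test was made. With the floor at the 75th percentile 0 factors were apart, 0 higher and 0 lower, with Klf5 at -0.13 and Sall4 at 0.43, and Pou5f1 and Zfp42 gave no value. That floor leaves fewer genes tested. It also left 0 higher in the pluripotency, ES cell, SALL and DPPA lists and 0 lower in the pluripotency, Krüppel-like, Zfp42 and Pou5f1 repressor lists. The median was then 0.25 for the SALL list and -0.028 for Zfp42 with Yy1, and the POU list had no measured gene. At 3-fold, 1 factor (Klf5) was apart, 0 higher and 1 lower. With a pseudocount, Klf5 was at -1.40 and Zfp42 at -1.10, and the pluripotency list had 1 higher. With each chromosome's median removed, Zfp42 was at -1.98, the Krüppel-like list had 3 lower, the pluripotency list 1 higher and the ES cell list 2 higher. The cause was not tested. With no floor, and equally with one at the 25th percentile, the ES cell list had 4 higher and 3 lower, the DPPA list 2 higher and 1 lower, the SALL list 1 lower, and the Pou5f1 repressor list 1 higher. That last count was also 1 with the values as deposited and with the loess trend removed, and the ES cell list had 2 higher with the values as deposited. With probes averaged the SALL list had 1 higher and a median of 0.56, and with single-probe genes 1 higher.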
